A study of Mus musculus with 13 samples.

Results

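The AP-1 Fos and Jun family is the set of 7 mouse genes that encode the Fos proteins (Fos, Fosb, Fosl1, Fosl2) and the Jun proteins (Jun, Junb, Jund). Members were taken by gene symbol, and all 7 were found among the 55291 symbols of the count tables. Expression was measured by RNA sequencing of CA1 tissue that had been isolated from organotypic entorhino-hippocampal cultures. The cultures came from wildtype C57BL/6 mice of either sex and were prepared at postnatal day 4 to 5 and matured for at least 18 days. Non-lesioned control cultures (n = 5) were compared with cultures 3 days after Schaffer collateral lesion (SCL, n = 4), which cuts the axons from CA3 to CA1, and 3 days after entorhinal cortex lesion (ECL, n = 4), which removes the entorhinal axons that end on the outer dendrites of CA1 neurons. Each library came from a single CA1 region of a single culture, without the scar at the lesion site, and no group carried a transgene or drug treatment. Titles and source names give CA1 as the tissue, whereas the extraction protocol in the labels names the dentate gyrus. All 6 CA1 pyramidal marker genes had a count in every library, as did 5 of 5 CA3 pyramidal markers and 3 of 6 dentate granule cell markers. Detection alone therefore does not tell these subfields apart.

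AP-1 is a transcription factor made of pairs of basic leucine zipper proteins. Fos proteins cannot pair with each other and need a Jun partner, whereas Jun proteins can also pair among themselves, and the pairs bind the DNA element TGANTCA. In hippocampal neurons Fos, Fosb and Junb are classical immediate early genes: their transcription starts within minutes of synaptic activity, calcium entry and ERK signalling, through CREB and serum response factor at their promoters, and their mRNAs are short-lived. Jun is further known for its phosphorylation by the stress kinase JNK and its response to axon injury, while Jund mRNA is present in many resting cells.

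Promoter stretches of 4 members are printed here because they hold, close upstream of their starts, letters of the element bound by CREB and related factors: TGACG is the core of that element, and TGACATCA is a variant of it. The stretches cover bases -150 to -11 before the RefSeq transcript start (GRCm38.p6), read 5′ to 3′ on the gene's strand, and capitals mark the motifs TGACG and TGACATCA, searched on both strands.
Fos (chr12:85473740-85473879, plus strand): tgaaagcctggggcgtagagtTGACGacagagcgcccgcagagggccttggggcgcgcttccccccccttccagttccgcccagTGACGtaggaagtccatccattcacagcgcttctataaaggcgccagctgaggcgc
Fosb (chr7:19310056-19310195, minus strand): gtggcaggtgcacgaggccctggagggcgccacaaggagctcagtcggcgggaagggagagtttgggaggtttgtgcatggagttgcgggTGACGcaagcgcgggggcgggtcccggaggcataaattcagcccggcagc
Junb (chr8:84978759-84978898, minus strand): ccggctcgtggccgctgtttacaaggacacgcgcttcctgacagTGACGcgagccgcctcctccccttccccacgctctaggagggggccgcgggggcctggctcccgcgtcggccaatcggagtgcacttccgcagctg
Jun (chr4:95052233-95052372, minus strand): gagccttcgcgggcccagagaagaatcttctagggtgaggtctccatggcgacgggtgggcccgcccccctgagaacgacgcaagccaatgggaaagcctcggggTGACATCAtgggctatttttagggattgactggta
Fos held TGACG at positions -129 and -66, Fosb at -60 and Junb at -106, counted from the transcript start to the first base of the motif. TGACG was present in the 250 bases upstream of 17.8% of 32851 RefSeq promoters, and 3 of the 6 members with a promoter entry held it there. Jun held TGACATCA at -45, a motif present upstream of 2.93% of promoters. The full element TGACGTCA, the AP-1 element TGANTCA and the CArG box bound by serum response factor were in the same window of 1.55%, 6.75% and 1.47% of promoters and of none of the 6 members. Bases further upstream than 250 were not searched, so a site there would have been missed. Such matches are descriptions of letters and not measured binding sites. The RefSeq starts of Jund and Fosl2 lay elsewhere than the annotated gene starts, so their stretches are not shown. Both are among the 6 members counted here, although their windows may not hold their promoters.

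The members differ in how well their reads can be assigned. Fos (chromosome 12, 85473890 to 85477273, plus strand), Fosb (chromosome 7, 19302696 to 19310051, minus strand) and Fosl2 (chromosome 5, 32135801 to 32157842, plus strand) share no exon base with another gene in the annotation of GRCm38. Because reads were counted without strand, counts of the other members are uncertain where an opposite-strand gene overlaps their exons. Jun (chromosome 4, 95049034 to 95052222, minus strand) shares 7.28% of its exon bases with Junos, and Junb (chromosome 8, 84974484 to 84978718, minus strand) shares 7.52% with Prdx2. Jund (chromosome 8, 70698949 to 70700616, plus strand) shares 52.6% with Gm11175, which was listed at 0 counts in every library, and Fosl1 (chromosome 19, 5447547 to 5455946, plus strand) shares 57.2% with Ccdc85b.

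Library totals were 14371152 to 21092612 counts in controls, 16405517 to 56786613 after SCL and 20210165 to 46449937 after ECL, so lesioned cultures were on the whole sequenced more deeply. Male and female cultures, as given in the column headings, numbered 2 and 3 in controls, 1 and 3 after SCL and 3 and 1 after ECL. No batch or date is given. In the SCL comparison 2848 of 11438 genes tested passed an adjusted p of 0.05 (24.9%), and in the ECL comparison 3114 of 11212 did (27.8%). Of the genes called in the SCL comparison 1504 were higher and 1344 lower, and of those called in the ECL comparison 1708 were higher and 1406 lower. With scaling factors taken over all symbols rather than the genes tested, the median of all genes moved by 0.20 and 0.19 on the log2 scale and the split became 2516 higher and 596 lower, and 2435 higher and 695 lower. Without a filter on low counts the split after ECL turned to 3453 higher and 4581 lower. By DESeq2 the split after SCL was 2115 higher and 1227 lower. Direct comparison of ECL with SCL called 0 of 12232 genes (0%) by edgeR and 71 by DESeq2, with 897 genes at an unadjusted p under 0.05. Summed microglial markers were 330.1 to 388 CPM (counts scaled to library size) in controls, 711 to 1435 after SCL and 710.1 to 1056 after ECL. All 8 microglial markers were called higher after SCL and 4 of 8 after ECL. Summed CA1 pyramidal markers were 332 to 419 CPM, 312 to 392 CPM and 278 to 492 CPM in the same order. Summed dentate granule cell markers were 66.6 to 85.5 CPM, 48.3 to 57.9 CPM and 46.0 to 61.3 CPM. Summed CA3 pyramidal markers were 18.8 to 31.6 CPM in controls, 22.6 to 36.5 CPM after SCL and 30.7 to 42.0 CPM after ECL. In such bulk samples fewer cells of a type and less RNA per cell cannot be told apart. The part of these marker shifts in the results on the family was not tested.

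To learn whether loss of the Schaffer collateral or the entorhinal input was accompanied by a change in AP-1 expression, each member was compared between lesioned and control cultures. Of the Fos genes, Fos, Fosb and Fosl2 were lower after both lesions and passed the test in each comparison, and Fosl1 was not tested. Among the Jun genes, Jun, Junb and Jund did not pass in either comparison. Of the 6 members tested, 3 were called lower and 0 higher after SCL, where 11.8% of all genes tested were called lower, and 3 were called lower and 0 higher after ECL, where this share was 12.5%. The median log2 fold change of the 6 members was -0.63 after SCL and -0.53 after ECL, beside 0.0090 and -0.0063 over all genes tested. With sex as a term in the fit, Fos, Fosb and Fosl2 were still called in both comparisons, Fosb after ECL only narrowly (edgeR adjusted p = 0.049).

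**Figure D1:**
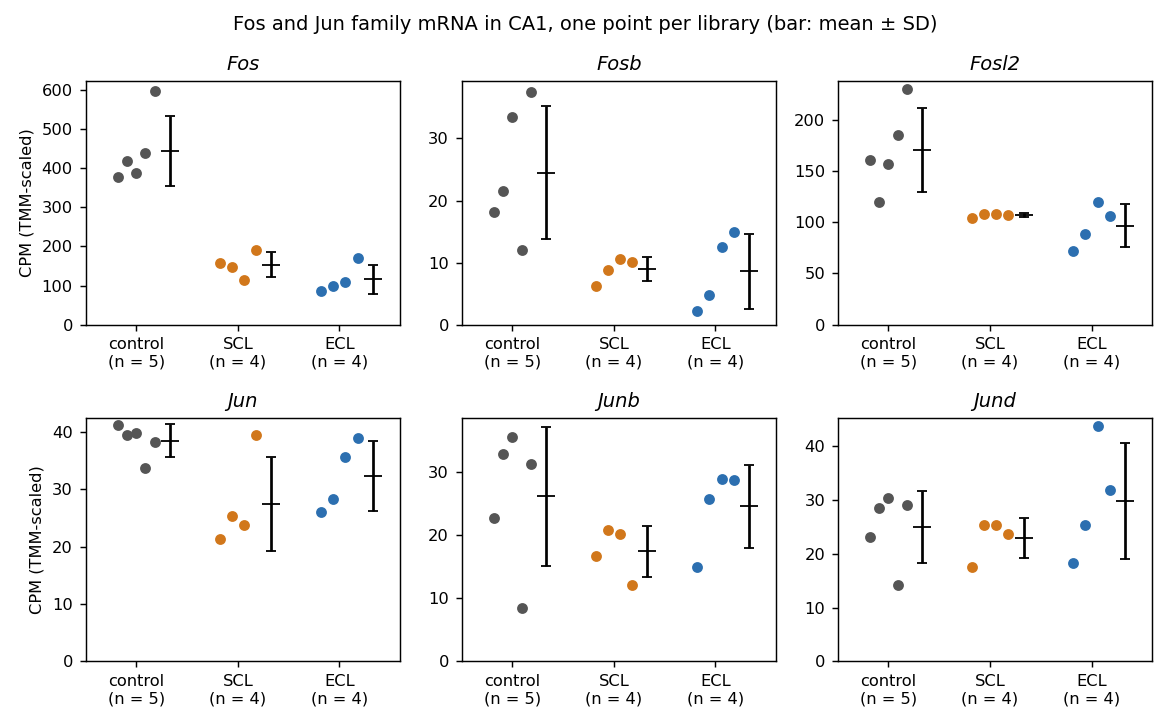
Levels of 6 family members in TMM-scaled CPM (y axis), with 1 point per library in control, SCL and ECL cultures and a bar at the mean ± SD. All lesioned libraries lie below all controls for Fos (at most 192 against at least 376 CPM), whereas the groups overlap for Jun, Junb and Jund.

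Fos, the founding Fos gene and a widely used marker of recent neuronal activity, was measured at 376, 419, 387, 437 and 596 CPM in control cultures 1 to 5. After SCL it was 158, 148, 114 and 192 CPM, and after ECL 85.6, 100.0, 108 and 169 CPM. Each lesioned culture was below each control culture, with a gap between 192 and 376 CPM. The mean was 443 ± 88.9 CPM in controls (SD, n = 5). It was 153 ± 31.8 CPM in the SCL group (SD, n = 4) and 116 ± 36.8 CPM in the ECL group (SD, n = 4). The log2 fold change was -1.53 ± 0.18 (SE) after SCL, a 2.89-fold lower level (edgeR quasi-likelihood test, Benjamini-Hochberg adjusted p = 0.00087). After ECL it was -1.93 ± 0.21 (SE), a 3.81-fold lower level (edgeR adjusted p = 9.0e-05). By unadjusted p, Fos ranked 16 of 11438 genes in the SCL comparison and 31 of 11212 in the ECL comparison. Control replicate 5 held the highest value, and without it the log2 fold change was -1.41 after SCL and -1.80 after ECL.

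Fosb encodes the full-length FosB protein and, by alternative splicing, the truncated and long-lived ΔFosB, which counts per gene do not separate. It was measured at 18.1, 21.6, 33.4, 12.0 and 37.5 CPM in the controls, at 6.24, 8.74, 10.6 and 10.1 CPM after SCL and at 2.21, 4.87, 12.5 and 14.9 CPM after ECL. The SCL cultures lay below all controls, whereas ECL replicates 3 and 4 lay above control replicate 4. The log2 fold change of Fosb was -1.46 ± 0.32 (SE) after SCL (edgeR adjusted p = 0.0071) and -1.51 ± 0.48 (SE) after ECL (edgeR adjusted p = 0.030). The ECL call rested on single libraries. Without control replicate 3, control replicate 5, ECL replicate 1 or ECL replicate 2 the log2 fold change was -1.37, -1.31, -1.17 and -1.31, and the edgeR adjusted p was 0.057, 0.077, 0.064 and 0.091.

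Fosl2, which encodes Fra-2, a Fos protein without the strong activation domain of Fos, was measured at 160.5, 119.6, 156, 185 and 229.6 CPM in the controls. After SCL the 4 cultures lay close together, at 104, 108, 108 and 107 CPM, and after ECL they were spread over 72.2, 88.8, 119.6 and 106 CPM. All SCL cultures were below all controls. ECL replicate 3 and the lowest control, replicate 2, were both at 119.6 CPM, and which of them was lower depended on the scaling: the ECL library lay just below with factors over all 13 libraries and not with factors over the libraries of that comparison alone. The log2 fold change of Fosl2 was -0.67 ± 0.16 (SE) after SCL (edgeR adjusted p = 0.011) and -0.81 ± 0.19 (SE) after ECL (edgeR adjusted p = 0.0081). With scaling factors over all symbols, the SCL change was -0.47 and no longer passed (edgeR adjusted p = 0.057). With factors over the libraries of each comparison alone, 3 of 3 tested Fos genes had groups that did not overlap after SCL, a pattern held in the lower direction by 11.5% of all genes tested. After ECL Fos had it and Fosb and Fosl2 did not, beside 11.9% of all genes tested.

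Fosl1, which encodes Fra-1 and is known from migrating and transformed cells, was near the limit of detection and was not tested. Its raw counts were 0 to 3 in the controls, 0 to 6 after SCL and 0 to 4 after ECL, with sums of 3, 11 and 8 counts. A count of 3 corresponds to 0.053 to 0.21 CPM over the 13 libraries, so differences in Fosl1 were not detectable with these counts. Fosl1 shares 57.2% of its exon bases with Ccdc85b, and the part of this overlap in its low counts was not tested.

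Jun, the main dimer partner of Fos and a target of JNK, was measured at 41.3, 39.5, 39.7, 33.7 and 38.2 CPM in the controls. It was at 21.3, 25.4, 23.8 and 39.5 CPM after SCL and at 26.0, 28.3, 35.7 and 39.0 CPM after ECL. After SCL 3 of 4 cultures lay below every control and SCL replicate 4 lay among the controls. The log2 fold change was -0.49 ± 0.19 (SE) after SCL (edgeR adjusted p = 0.068) and -0.25 ± 0.16 (SE) after ECL (edgeR adjusted p = 0.27), and neither passed. Without SCL replicate 4 the SCL change was -0.71 and passed (edgeR adjusted p = 0.0095).

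Junb, an immediate early Jun gene that can oppose Jun at many promoters, was measured at 22.7, 32.8, 35.6, 8.41 and 31.3 CPM in the controls. It was at 16.6, 20.8, 20.1 and 12.1 CPM after SCL and at 15.0, 25.8, 28.9 and 28.8 CPM after ECL. The SCL cultures lay below all controls but control replicate 4, which held the lowest value of all 13 libraries. The log2 fold change was -0.59 ± 0.34 (SE) after SCL (edgeR adjusted p = 0.22) and -0.08 ± 0.33 (SE) after ECL (edgeR adjusted p = 0.88), the latter 0.07 with scaling factors over all symbols. Without control replicate 4 the SCL change was -0.82 and passed (edgeR adjusted p = 0.015). Prdx2, whose exons overlap Junb on the opposite strand, was higher, with log2 fold changes of 0.66 after SCL and 0.93 after ECL (edgeR adjusted p = 0.013 and 0.0013), and its part in the Junb counts was not tested.

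Jund, the Jun gene least tied to stimulation, was measured at 23.2, 28.5, 30.3, 14.1 and 29.0 CPM in the controls. Its levels were 17.6, 25.4, 25.3 and 23.6 CPM after SCL and 18.3, 25.5, 43.8 and 31.8 CPM after ECL. All 3 groups overlapped, with ECL replicate 3 above every other library. The log2 fold change was -0.13 ± 0.22 (SE) after SCL (edgeR adjusted p = 0.71) and 0.26 ± 0.26 (SE) after ECL (edgeR adjusted p = 0.49). With scaling factors over all symbols the SCL value changed sign to 0.07.

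**Figure D2:**
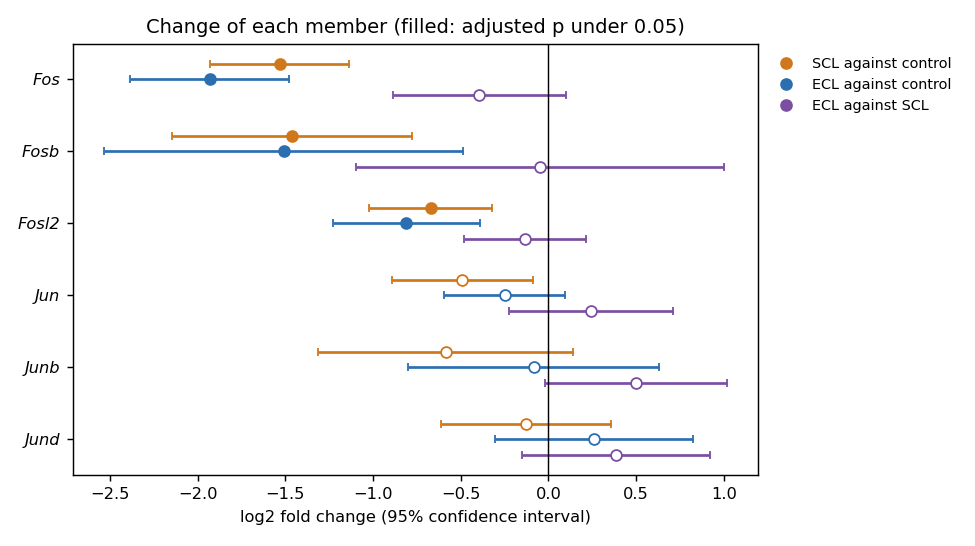
Log2 fold changes (x axis) of 6 family members (y axis) for SCL against control, ECL against control and ECL against SCL, with 95% confidence intervals; filled points passed an adjusted p of 0.05. Fos, Fosb and Fosl2 are filled and below 0 in both comparisons with control, and all points of ECL against SCL are open.

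The lesions were compared directly, since a difference from control in each does not show whether they differ. None of the 6 tested members passed for ECL against SCL by edgeR or by DESeq2 (0 of 6 in each), and 0 had an unadjusted p under 0.05. The intervals remained wide. Fos differed by -0.39 on the log2 scale (95% confidence interval -0.89 to 0.10), Fosl2 by -0.13 (-0.48 to 0.21) and Fosb by -0.05 (-1.10 to 1.00). For the Jun genes the values were 0.24 for Jun (-0.23 to 0.71), 0.50 for Junb (-0.02 to 1.02) and 0.39 for Jund (-0.15 to 0.92). A difference between the lesions of more than 2-fold in either direction was thus inside the interval for Fosb and, with ECL higher, for Junb. Both comparisons with control share the 5 control libraries, so their values for a member are not independent of each other.

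To compare members with each other, CPM were divided by the mean length of each gene's annotated transcripts. On this scale of CPM per kilobase, Fos was by far the highest in controls, at 406 ± 81.4 (SD, n = 5), with a range of 345 to 546. Fosl2 followed at 43.6 ± 10.4, Junb at 22.7 ± 9.59, Jund at 15.0 ± 4.00, Jun at 12.1 ± 0.899 and Fosb at 7.50 ± 3.25 (SD, n = 5 each), and Fosl1 was at 0.035. Ranges separated Fos from Fosl2 and overlapped between each further pair of neighbours down to Fosb. The length used matters for this order: the Fos annotation includes short non-coding transcripts, and its control level was 188 CPM per kilobase of all exons together and 210.2 CPM per kilobase of its longest coding transcript. Per kilobase of all exons, Fosl2 was at 17.6, Jund at 15.0, Jun at 12.1, Junb at 11.4 and Fosb at 3.93, so the order below Fosl2 changed. Jund and Fosl1 share 52.6% and 57.2% of their exon bases with opposite-strand genes, so their levels and places in the order are uncertain on each scale.

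**Figure D3:**
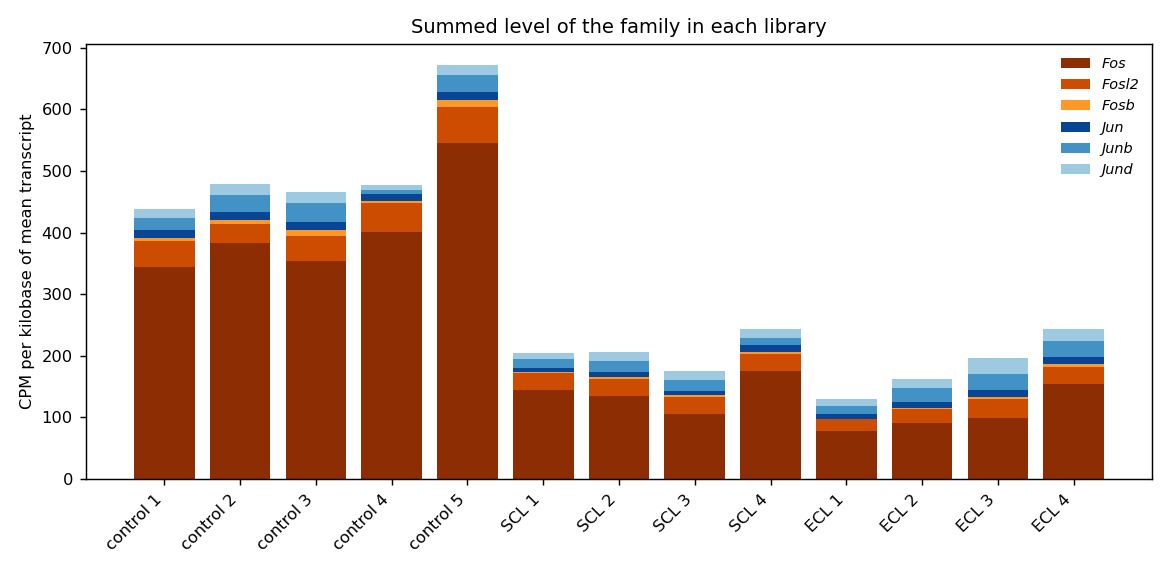
Summed level of the family in each of the 13 libraries in CPM per kilobase of mean transcript (y axis), stacked by member with Fos genes in red to orange and Jun genes in blue. Control bars sum to 438 to 673 and lesioned bars to 130 to 243, and most of the difference is in the Fos segment at the bottom.

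After the lesions Fos genes made up a smaller part of the family's summed mRNA. The summed level of the 7 members was 507 ± 94.3 CPM per kilobase in controls (SD, n = 5), as against 208 ± 27.4 in SCL cultures and 183 ± 48.3 in ECL cultures (SD, n = 4 each). Within it, the Jun genes together were at 49.8 ± 14.3, 37.5 ± 4.31 and 49.4 ± 13.2 CPM per kilobase. The Fos genes accounted for 90.0 ± 3.08% of the summed level in controls (range 86.8% to 94.5%), 81.6 ± 3.68% after SCL (77.2% to 84.7%) and 72.9 ± 3.94% after ECL (68.1% to 76.8%). Shares per kilobase of all exons were lower in each group, at 84.3%, 71.8% and 60.9%, and kept this order. These shares describe mRNA, include the uncertain level of Jund and are given without a test. In CPM, the ratio of Fos to Jun was 11.6 ± 2.68 in controls, 5.73 ± 1.23 after SCL and 3.55 ± 0.565 after ECL, with all lesioned cultures (3.03 to 7.44) below all controls (9.12 to 15.6). The ratio of Fos to Fosl2 was 2.66 ± 0.484, 1.43 ± 0.307 and 1.20 ± 0.289 in the same order, so Fos counts differed by a larger factor than Fosl2 counts.

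Members also differed in how they varied between cultures of the same group. Of the 6 tested members, Jun had the smallest spread among controls, with a coefficient of variation of 7.45%, and Fosb and Junb had the largest, 43.4% and 42.2%. Control replicate 4 held the lowest control value of Fosb, Jun, Junb and Jund but the second highest of Fos and Fosl2. ECL replicate 1, the most deeply sequenced of the ECL libraries, held the lowest ECL value of all 6 members. Among the 11649 genes with a mean normalised count of at least 150 over all libraries, Jund ranked 16 in closeness to Junb, by the root-mean-square difference of centred log2 CPM profiles over 13 libraries (0.35). Both genes are GC-rich, with 62.7% and 67.1% GC in their exons, against 54.4% to 56.7% in Fos, Fosb, Fosl2 and Jun. The median of 355 genes with at least 60% GC deviated by -0.41 on the log2 scale in control replicate 4, where Junb deviated by -1.34 and Jund by -0.82. In ECL replicate 3 the GC-rich median deviated by 0.44, Junb by 0.44 and Jund by 0.81. Some other libraries also shared a direction: the GC-rich median, Junb and Jund were at 0.27, 0.74 and 0.28 in control replicate 3. In ECL replicate 1 they were at -0.17, -0.51 and -0.44. Others did not: in SCL replicate 4 the GC-rich median was at 0.07 and Junb at -0.82. In control replicate 5 the median was at -0.15, Junb at 0.55 and Jund at 0.22. The part of base composition in the Junb and Jund levels was not tested.

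**Figure D4:**
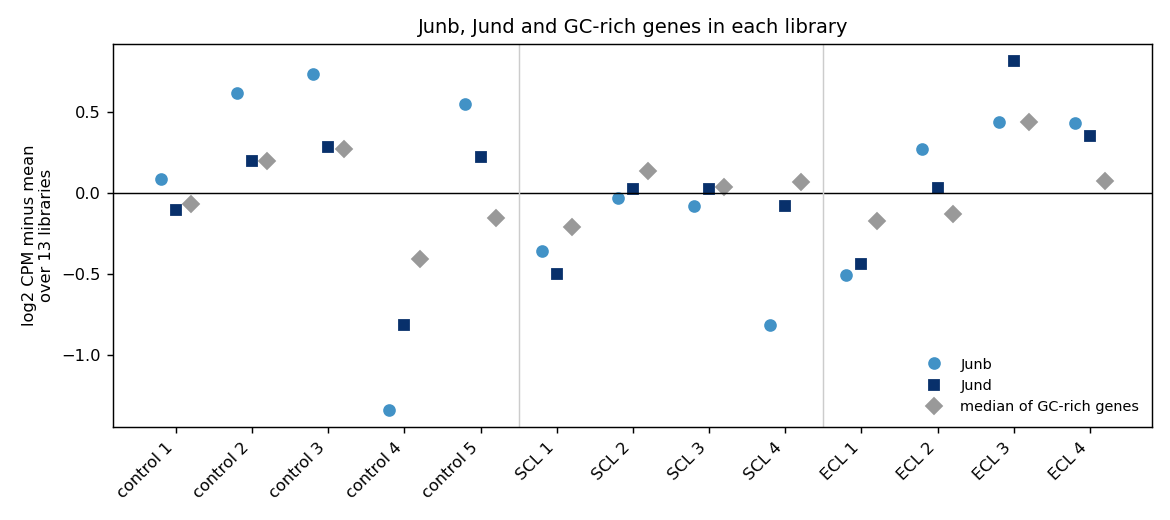
Deviation of log2 CPM from the mean over 13 libraries (y axis) for Junb (circles), Jund (squares) and the median of 355 GC-rich genes (diamonds) in each library (x axis). All 3 are lowest in control replicate 4, at -1.34, -0.82 and -0.41, and Jund and the GC-rich median are highest in ECL replicate 3, at 0.81 and 0.44.

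The genes with the profiles nearest to Fos over the 13 libraries were Actb (root-mean-square difference 0.32 on the log2 scale), Alkbh5 (0.33), Ppp6r2 (0.33), Eid2 (0.36) and Tob1 (0.36), beside a median of 0.96 over all genes. Nearest to Junb were Tlnrd1 (0.24), Ppp1r15a (0.27), Gm43829 (0.28), Gm42972 (0.29) and Pacsin3 (0.30), beside a median of 0.68. Nearest to Jund were Cnnm1 (0.14), Gm10115 (0.15), Cry2 (0.16), Dusp8 (0.16) and Mapk7 (0.17), beside a median of 0.53. No other member of the family was among the 5 genes nearest to Fos, Junb or Jund. Within the family, Fosl2 was closest to Fos (0.57, rank 317), followed by Fosb (0.63, rank 537).

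Sequence features that can mark short-lived mRNAs were counted in the 3′ untranslated regions. The motif ATTTA, searched on the transcript strand, occurred 4 times in Fos, 8 times in Fosl2, 4 times in Jun, 2 times in Junb and 1 time each in Fosb, Fosl1 and Jund. Per kilobase, Fos held 4.89 copies, a density reached by 6.63% of 21824 genes, Junb held 4.10 (10.2% of genes) and Jun 3.24 (16.7%). The density in Fosl2, 1.72 per kilobase, was reached by 37.5% of genes, and that in Fosb, 0.434, by 62.0%. Among the tested members the genes called lower included both the densest and the sparsest. The part of mRNA decay in these calls was not tested.

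The other genes of the pathway were followed through 9 lists of regulators, partners and targets, which hold 150 genes outside the family. After SCL 11 of 123 tested were higher and 23 lower, so that 27.6% were called beside 24.9% of all genes tested. After ECL 12 of 119 were higher and 30 lower, 35.3% beside 27.8%. ECL against SCL called 0 of 125 by edgeR and 1 by DESeq2, with 11 at an unadjusted p under 0.05. List medians are log2 fold changes and are read beside the medians of all genes, which lay at 0.0090 for SCL and -0.0063 for ECL.

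**Figure D5:**
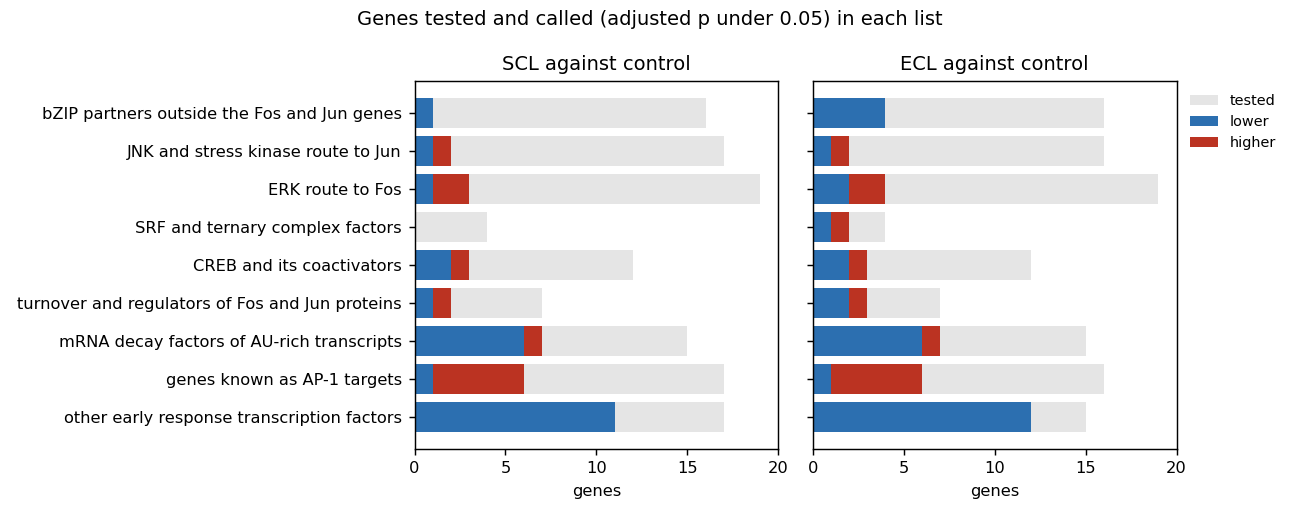
Number of genes tested (grey), called lower (blue) and called higher (red) at an adjusted p of 0.05 in each of 9 lists, for SCL against control and ECL against control. The list of other early response transcription factors holds 11 lower of 17 after SCL and 12 lower of 15 after ECL, and known AP-1 targets hold 5 higher and 1 lower in each.

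Of 19 ERK route genes tested, SCL cultures had 2 higher and 1 lower (15.8% called, beside 24.9% of all genes) and ECL cultures 2 higher and 2 lower (21.1%, beside 27.8%), with list medians of -0.07 and -0.19 on the log2 scale. Spry2, a feedback inhibitor of receptor tyrosine kinase signalling, was lower, with log2 fold changes of -1.80 after SCL and -2.51 after ECL (edgeR adjusted p = 0.0095 and 0.00066). Map2k1, which encodes the ERK kinase MEK1, was higher, with log2 fold changes of 0.61 and 0.47 (edgeR adjusted p = 0.012 and 0.026), and Rps6ka1, the ERK-activated kinase RSK1, was higher, with log2 fold changes of 0.96 after SCL and, as a value named after it was seen, 0.82 after ECL (edgeR adjusted p = 0.025 and 0.049). Spred2, another inhibitor of the route, was lower, with a log2 fold change of -0.55 after ECL (edgeR adjusted p = 0.028). Of 4 tested serum response factor and ternary complex factor genes, 0 were called after SCL by edgeR, beside 24.9% of all genes. DESeq2 called 1, and 1 had an unadjusted p under 0.05. The gene called by DESeq2 was Mrtfa, with a log2 fold change of 0.67 (DESeq2 adjusted p = 0.022). After ECL 50% of the 4 were called, beside 27.8% of all genes. In that comparison Elk3, a ternary complex factor, had a log2 fold change of -0.75 and Mrtfa, a coactivator of serum response factor, of 0.83 (edgeR adjusted p = 0.030 and 0.031). Of 12 tested CREB genes, 1 was higher and 2 lower in each comparison, with medians of 0.03 and -0.06. The share called was 25% in each, beside 24.9% of all genes after SCL and 27.8% after ECL. Ep300, which encodes the coactivator p300, was lower, with log2 fold changes of -1.19 and -0.999 (edgeR adjusted p = 0.0013 and 0.0021), and its relative Crebbp was lower, with a log2 fold change of -0.78 after ECL (edgeR adjusted p = 0.0080). Among the kinases that restrain CREB coactivators, Sik2 was lower, with a log2 fold change of -1.21 after SCL (edgeR adjusted p = 0.0037), while Sik3 was higher, with log2 fold changes of 0.35 after SCL and 0.42 after ECL (edgeR adjusted p = 0.042 and 0.046).

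On the side of Jun, 1 of 17 JNK and stress kinase genes was higher and 1 lower after SCL (11.8% called, beside 24.9% of all genes). After ECL 1 of 16 was higher and 1 lower (12.5%, beside 27.8%). The list medians were -0.08 and -0.04. The genes called after SCL were Mapk12, a p38 kinase, and Map2k6, a kinase of p38, with log2 fold changes of 0.76 and -0.99 (edgeR adjusted p = 0.035 and 0.026). After ECL they were Mapk8ip2, a JNK scaffold, and Map3k1, a kinase upstream of JNK, with log2 fold changes of 0.57 and -0.96 (edgeR adjusted p = 0.029 and 0.016). Whether these 4 genes differed between the lesions was tested by ECL against SCL, in which 0 of 18 genes of this list were called by edgeR and 1 by DESeq2, with 1 at an unadjusted p under 0.05. Both were Mapk12, with a log2 fold change of -1.01 by edgeR (adjusted p = 0.38) and -1.02 by DESeq2 (adjusted p = 0.0086). Of 16 tested basic leucine zipper partners outside the family, 1 was lower after SCL and 4 after ECL, with 0 higher. The share called was 6.25% after SCL and 25% after ECL, beside 24.9% and 27.8% of all genes, with list medians of -0.32 and -0.27. Maff, a small Maf protein, was lower in both, with log2 fold changes of -0.94 and -0.89 (edgeR adjusted p = 0.049 and 0.035), and Maf was lower after ECL, with a log2 fold change of -0.62 (edgeR adjusted p = 0.020). Atf1, a relative of CREB named after its value was seen, was also lower after ECL, with a log2 fold change of -0.54 (edgeR adjusted p = 0.044).

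Genes that act on Fos and Jun products changed in both directions. Of 7 tested genes for turnover of the proteins, SCL cultures had 1 higher and 1 lower and ECL cultures 1 higher and 2 lower. That was 28.6% called after SCL and 42.9% after ECL, beside 24.9% and 27.8% of all genes, with list medians of -0.28 and -0.44. Cops5, a COP9 signalosome subunit first described as a Jun coactivator, was higher, with log2 fold changes of 0.82 and 1.04 (edgeR adjusted p = 0.0085 and 0.0010), and Trib1, a pseudokinase adaptor of the ubiquitin ligase COP1, was lower, with log2 fold changes of -0.94 and -0.91 (edgeR adjusted p = 0.0022 and 0.0020). Gsk3b, a kinase that marks Jun for degradation, was lower, with a log2 fold change of -1.33 after ECL (edgeR adjusted p = 0.0050). Of 15 genes for binding or decay of AU-rich mRNAs, 1 was higher and 6 lower in each comparison, with medians of -0.38 and -0.61. In each, 46.7% were called, beside 24.9% of all genes after SCL and 27.8% after ECL. The list does not separate factors that promote decay from those that oppose it, so these values give no direction of decay. Btg2, an activator of deadenylation that is also an immediate early gene, was lower, with log2 fold changes of -1.51 and -1.26 (edgeR adjusted p = 0.00019 and 0.00018). Elavl4, a neuronal RNA-binding protein, was lower, with a log2 fold change of -0.52 after SCL (edgeR adjusted p = 0.0090), and the RNA-binding proteins Hnrnpd and Tial1 were lower, with log2 fold changes of -0.81 and -1.84 after ECL (edgeR adjusted p = 0.0012 and 0.0020). Cnot8, a deadenylase subunit, was higher, with a log2 fold change of 0.97 after SCL (edgeR adjusted p = 0.011). Elavl4, Cnot8 and Hnrnpd were not particular to 1 lesion. DESeq2 also called Elavl4 lower (-0.55) and Cnot8 higher (1.04) after ECL (DESeq2 adjusted p = 0.0016 and 0.00010). Hnrnpd was called lower after SCL, with -0.42 (DESeq2 adjusted p = 0.032). Tial1 was called by DESeq2 after ECL, with -1.78 (DESeq2 adjusted p = 0.00050), and not after SCL. ECL against SCL called 0 of the 15 genes of this list by edgeR and 0 by DESeq2.

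Genes known as AP-1 targets were called higher more often than lower, as were all genes tested with the main settings. Of 17 tested after SCL 5 were higher and 1 lower, beside 1504 higher and 1344 lower of all 11438 genes tested. Of 16 tested after ECL 5 were higher and 1 lower, beside 1708 higher and 1406 lower of all 11212. The share called was 35.3% after SCL and 37.5% after ECL, beside 24.9% and 27.8% of all genes. DESeq2 called 8 genes of the list after SCL and 7 after ECL. The list medians were 0.41 and 0.39. Timp1, an inhibitor of metalloproteinases, was higher, with a log2 fold change of 2.09 after SCL (edgeR adjusted p = 0.0021), as was the astrocyte filament gene Gfap, with 0.85 (edgeR adjusted p = 0.0024). After ECL Cdk5 was higher, with a log2 fold change of 1.48, as was the metallothionein gene Mt1, with 1.08 (edgeR adjusted p = 0.0011 and 0.0013). The remaining genes called higher, named after their values were seen, were Cdk5, Mt1 and the filament gene Vim after SCL and Timp1, Gfap and the cyclin gene Ccnd1 after ECL. Dusp1, a phosphatase of MAP kinases and itself an immediate early gene, was lower, with log2 fold changes of -1.80 and -1.52 (edgeR adjusted p = 0.00019 and 0.00012). Summed astrocyte markers were 7359 to 12583 CPM in controls, 8990 to 10589 CPM after SCL and 8095 to 9473 CPM after ECL, and the part of glial cells in these target genes was not tested.

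Of 17 other early response transcription factors tested after SCL, 11 were lower and 0 higher, beside 11.8% of all genes called lower. Of 15 tested after ECL, 12 were lower and 0 higher, beside 12.5% of all genes. The list medians were -1.07 after SCL and -0.89 after ECL. Maff stands on this list as well as among the basic leucine zipper partners. Egr2, a relative of Egr1, was lower, with log2 fold changes of -4.98 and -4.31 (edgeR adjusted p = 1.5e-05 and 1.3e-05). Ier2, a nuclear immediate early protein, was lower, with log2 fold changes of -3.02 and -2.85 (edgeR adjusted p = 7.7e-06 and 1.3e-05), as was the zinc finger factor Egr1, with -2.26 and -2.08 (edgeR adjusted p = 5.0e-05 and 2.2e-05). The log2 fold changes of these 3 genes, named for the smallest adjusted p, were larger in size than those of Fos in the same comparisons. The list medians were smaller in size than those of Fos.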

How the data were processed

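RNA from 13 CA1 isolates was converted to cDNA with a low-input kit, amplified, and sequenced in pairs of 150 bases. Per the labels and the study's methods, the authors trimmed reads with cutadapt 3.5, mapped them to mm10 with STAR 2.7.8a and counted them over exons of GENCODE M25 with featureCounts 2.0.1 in unstranded mode. Raw counts per gene symbol were deposited, without normalisation by the authors. In each library 63.0% to 74.3% of counts between 1 and 20 were even, so the mates of a pair may have been counted separately, and halved counts were an alternative. Sample groups and replicate numbers come from the titles, and sex from the column headings, whose numbers differ from those of the titles. There were 0 columns of other samples.

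Each comparison was fitted on its own groups with edgeR 4.0.16 (quasi-likelihood test, two-sided, TMM factors) under R 4.3.3, for genes with a mean normalised count of at least 150, and p-values were adjusted by Benjamini-Hochberg over all genes tested at a threshold of 0.05. Standard errors were derived from each gene's log2 fold change and F statistic. Levels are CPM with TMM factors over 13 libraries, and profiles used a prior count of 1. Library totals ran from 14371152 to 56786613 counts, and limits of detection are 3 counts per library and cover counting error only. The scripts were tested on simulated data. Alternatives were DESeq2 1.42.0, other scaling factors and filters, a joint fit of all groups, a sex term, a replicate block, a threshold of 0.01, other gene lengths and leaving out each library; the block by heading number and the length of the longest coding transcript were added after the data were seen. P-values measure the spread between these cultures, which the titles call biological replicates.

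Coordinates, lengths and exon overlaps come from GENCODE M21 on GRCm38, an older release of the annotation the authors used, and promoters from RefSeq on GRCm38.p6. Named genes are all 7 members, up to 3 called genes of each list with the smallest adjusted p per comparison, and the 5 nearest profiles of Fos, Junb and Jund; 1 gene that this rule would name is not reported here. Members and lists were chosen with earlier results of these data known.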

Additional observations from a re-analysis of the deposited data

Results flagged for a closer look

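Fos in control replicate 5 was at 596 CPM, while the other 4 controls lay between 376 and 437 CPM. Its gap to the nearest control was 0.722 of the group's range, above the critical value of 0.71 for 5 samples. Among 21 groups of values searched this was 1 flag, and chance flags about 1 group in 20. Without this library Fos was still lower, by -1.41 after SCL and -1.80 after ECL on the log2 scale (edgeR adjusted p = 0.0024 and 0.00040).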

How the results depend on the processing

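Fos kept its direction and its call in both comparisons with control under all 20 alternatives each, with log2 fold changes between -1.66 and -1.34 for SCL and between -2.17 and -1.76 for ECL. Fosb after SCL and Fosl2 after ECL also kept their calls. Of 120 values of the members after SCL, 3 lost a call, 2 gained one and 2 changed sign, and of 120 after ECL, 5 lost a call and 6 changed sign, and of 114 for ECL against SCL 5 changed sign. At a threshold of 0.01, Fosl2 after SCL and Fosb after ECL were no longer called, and Fosl2 after SCL was also lost without a filter (-0.47, edgeR adjusted p = 0.077). Jund after SCL changed sign with factors over all symbols (0.068) and without a filter (0.0677), as did Junb after ECL (0.0701 and 0.0701). Junb after ECL also changed sign with the replicate block (0.0928) and without single libraries (-0.32 to 0.10). For ECL against SCL, Jun was -0.0247 with a sex term, and Fosb ran from -0.46 to 0.28 without single libraries. The causes were not tested.

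The number of genes called after SCL was 5390 without a filter, 1045 at a threshold of 0.01, 1824 with the heading number as a block and 1679 to 2797 without single libraries (1679 without SCL replicate 3). After ECL it was 4854 with a minimum mean of 10, 8034 without a filter, 1492 at 0.01 and 2088 to 3062 without single libraries. For ECL against SCL it was 71 by DESeq2, 217 without a filter, 1 in a joint fit of all groups, 1 with a sex term and 0 to 54 without single libraries (54 without SCL replicate 3). With the replicate block, 2342 genes were called after SCL, 2663 after ECL and 0 for ECL against SCL, and no call of a member changed. The same replicate numbers recur in all groups. Deviations from group means of same-numbered libraries correlated between -0.134 and 0.232 for SCL and control, between -0.145 and 0.405 for ECL and control and between -0.146 and 0.530 for ECL and SCL, so the numbers were not taken to pair the samples.

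The Fos genes' share of the family was 84.3%, 71.8% and 60.9% in control, SCL and ECL per kilobase of all exons, and 85.2%, 73.8% and 63.3% per kilobase of the longest coding transcript. Low counts limit Fosl1, and the spread between cultures limits Fosb, Junb and Jund.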
